A study of Mus musculus with 8 samples.

Results

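Serotonin receptor transcripts were followed between young adult and aged mouse brain. The 10 genes Htr1a, Htr1b, Htr1d, Htr2a, Htr2c, Htr3a, Htr4, Htr5a, Htr6 and Htr7 were taken by symbol from the 22430 genes of the deposited count table, after its Ensembl identifiers had been matched to GENCODE symbols. All 10 passed the filter on low counts and were among the 16730 genes tested. RNA came from brain hemispheres of C57Bl/6JRj male mice, 4 animals of 6 months (6m) and 4 other animals of 24 months (24m), none of them carrying a transgene or receiving a treatment according to the labels. The labels name the tissue as whole brain and as hemisphere, and the homogenate of a hemisphere mixed all regions and cell types, so that fewer cells of a type and less RNA per cell cannot be told apart in any value below. Polyadenylated RNA was sequenced as directional paired-end libraries, 1 library per animal.

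Serotonin is made by a small group of neurons in the raphe nuclei of the brainstem, whose axons reach nearly every brain region. Its receptors fall into families by the signal they start. The Htr1 and Htr5 receptors couple to Gi/o proteins, which lower cyclic AMP and open potassium channels, the Htr2 receptors couple to Gq proteins and phospholipase C, and the Htr4, Htr6 and Htr7 receptors couple to Gs proteins, which raise cyclic AMP. The Htr3 receptors are the exception, since they are cation channels that serotonin opens directly.

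The library totals ran from 63460940 counts to 103462414 counts, and the 10 receptor genes together received 1684 to 5527 counts per library. Replicate 1 of 24m was the deepest library and stood apart from the other aged libraries (chi-square of 179 to 417 per degree of freedom against them, and at most 61.2 in the other pairs of one age), so the value of each member without it is given beside the main one. Libraries of the ages also differed in how counts depended on transcript length: the slope of a gene's log2 CPM, taken relative to its mean over libraries, on the log10 of its exonic length lay between -0.68 and -0.36 in 6m and between -0.14 and 0.95 in 24m. Mitochondrially encoded transcripts took 5.26% to 6.52% of counts in 6m and 3.18% to 3.69% in 24m. The same slope on the GC share of the exons lay between 0.30 and 3.44 in 6m and between -3.69 and 1.13 in 24m. The length of a transcript, given here as the union of its exons, and the fold change after a smoothed length trend was taken out of each library are therefore given with each member. In replicates 1 to 4 the length slope was -0.601, -0.362, -0.401 and -0.677 in 6m and -0.140, 0.614, 0.620 and 0.947 in 24m. Across all 8 libraries, the CPM of Htr1a, Htr2c and Htr5a stood in the order of these slopes. Htr7 did so within each age but not across them, and no other member did so in both ages. The slope goes with age, and the 2 cannot be told apart here. What part these differences have in the results was not tested beyond those values.

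The promoters of 4 receptor genes are shown because the transcripts of Htr2a and Htr2c rose with age by the test described below, that of Htr1d fell and that of Htr6 had the narrowest interval around no change. Each sequence is the 250 bases before the start of the canonical transcript on the strand of the gene (GRCm39, GENCODE M39 annotation), with the GC box GGGCGG or its complement CCGCCC and the CCAAT box CCAAT or its complement ATTGG in capitals.

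Htr2a, chr14:74877094-74877343, plus strand: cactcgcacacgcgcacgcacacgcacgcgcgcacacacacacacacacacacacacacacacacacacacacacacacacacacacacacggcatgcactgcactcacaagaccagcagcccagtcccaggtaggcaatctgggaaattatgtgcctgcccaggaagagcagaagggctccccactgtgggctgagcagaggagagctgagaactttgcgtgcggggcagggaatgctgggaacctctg

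Htr2c, chrX:145745259-145745508, plus strand: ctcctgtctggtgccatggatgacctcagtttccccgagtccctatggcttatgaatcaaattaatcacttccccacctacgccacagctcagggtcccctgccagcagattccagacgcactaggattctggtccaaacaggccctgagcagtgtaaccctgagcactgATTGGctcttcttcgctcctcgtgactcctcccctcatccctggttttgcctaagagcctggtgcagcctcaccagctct

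Htr1d, chr4:136150585-136150834, plus strand: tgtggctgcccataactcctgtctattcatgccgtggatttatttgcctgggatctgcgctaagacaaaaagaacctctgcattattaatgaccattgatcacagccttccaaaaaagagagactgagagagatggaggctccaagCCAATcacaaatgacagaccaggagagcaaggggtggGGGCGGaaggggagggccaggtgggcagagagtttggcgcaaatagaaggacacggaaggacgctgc

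Htr6, chr4:138802887-138803136, minus strand: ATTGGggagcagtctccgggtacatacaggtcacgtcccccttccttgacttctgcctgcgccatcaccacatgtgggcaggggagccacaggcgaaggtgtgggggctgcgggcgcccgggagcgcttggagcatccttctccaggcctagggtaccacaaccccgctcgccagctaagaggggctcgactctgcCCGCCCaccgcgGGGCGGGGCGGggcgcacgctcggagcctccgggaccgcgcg

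The Htr2a window held neither motif and contained a long CA repeat. The Htr2c window held 1 CCAAT box, on the opposite strand, the Htr1d window 1 GC box and 1 CCAAT box, and the Htr6 window 3 GC boxes and 1 CCAAT box. Motifs were searched on both strands in the windows of all 10 members, where no GC box overlapped a CCAAT box and 2 of the GC boxes of Htr6 shared a base. A GC box was found in 4 of 10 members (Htr1a, Htr1d, Htr5a and Htr6) and in 44.9% of the windows of 16677 tested genes, and a CCAAT box in 5 of 10 (Htr1b, Htr1d, Htr2c, Htr4 and Htr6) and in 35.5% of all windows. The TATA box TATAAA was in none of the members and in 8.14% of all windows, and TGACG, one arm of the cyclic AMP response element, was in the Htr5a window and in 21.1% of all windows. Htr6 had 23 CpG dinucleotides in its window and the other 9 members 1 (Htr3a) to 11 (Htr2a), against a median of 11 over all tested genes. Matches of letters in these windows are a description and do not show that a factor binds there.

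Between 6m and 24m, 6 of the 10 receptor transcripts were higher with age (Htr1a, Htr1b, Htr2a, Htr2c, Htr4 and Htr5a), 1 was lower at the edge of the threshold (Htr1d), and 3 were not called (Htr3a, Htr6 and Htr7). A gene was called at an adjusted p of at most 0.05 in edgeR's quasi-likelihood test and a log2 fold change of at least 0.58 or at most -0.58. Over all 16730 genes tested, 25.3% were called higher and 18.3% lower at 24m by the same rule. The median log2 fold change of the members was 1.51, beside -0.0034 over all tested genes. The libraries of the ages did not overlap in 7 members, nor in 55.2% of all tested genes. Without replicate 1 of 24m, the 6 higher members were called again and Htr1d was not. Over all genes, 8265 were then called in either direction, beside 7295 with every library. After the length trend was removed, 6 members were called higher and 0 lower (21.3% and 17.2% of all tested genes), Htr1d having an adjusted p of 0.0315 at a log2 fold change of -0.50. After a GC trend was removed instead, the same 7 members were called, with log2 fold changes of 1.67 for Htr1a, 1.03 for Htr1b, 1.79 for Htr5a, 2.03 for Htr2a, 1.69 for Htr2c, 2.30 for Htr4 and -0.59 for Htr1d, and Htr3a, Htr6 and Htr7 had 0.13, 0.28 and 0.36. That setting called 7223 of all tested genes in either direction.

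**Figure D1:**
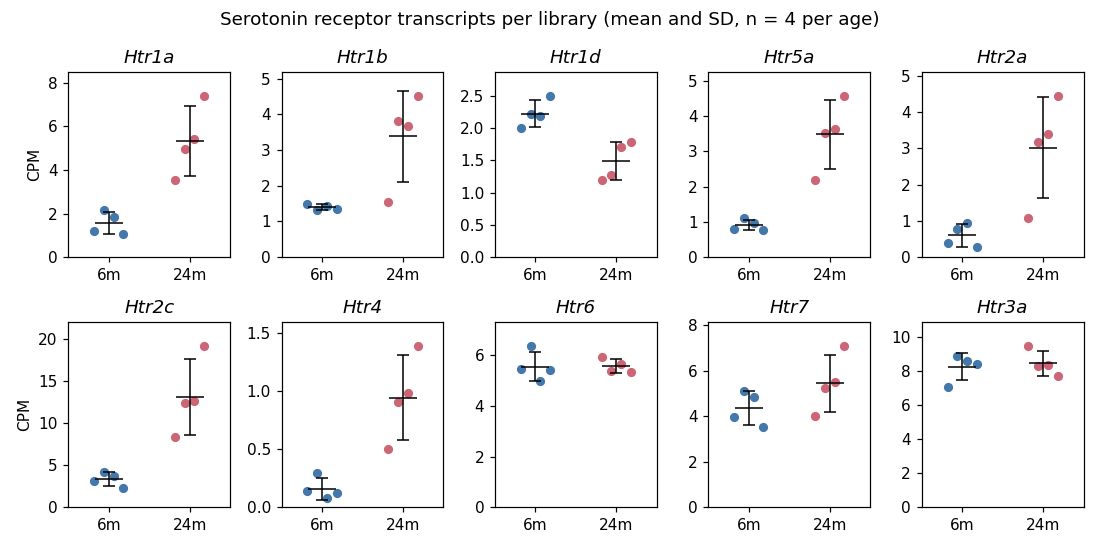
Counts per 1000000 scaled counts (CPM, y axis, from 0) of each of the 10 serotonin receptor transcripts in the 4 libraries of 6m (blue) and the 4 of 24m (red), in the order of replicates 1 to 4, with the mean and SD as black bars. The aged libraries sit above all young libraries for Htr1a, Htr1b, Htr5a, Htr2a, Htr2c and Htr4, below them for Htr1d, and overlap them for Htr6, Htr3a and, through replicate 1 alone, Htr7.

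Of the Gi/o-coupled receptors, Htr1a, Htr1b and Htr5a rose and Htr1d fell. Htr1a (ENSMUSG00000021721, chromosome 13, 105580147 to 105584630, plus strand, GRCm39) encodes the receptor that inhibits raphe neurons as their somatodendritic autoreceptor and is also found on hippocampal and cortical neurons. Its gene is a single exon of 4484 bases. Htr1a stood at 1.22, 2.15, 1.82 and 1.07 CPM in 6m replicates 1 to 4 and at 3.53, 4.95, 5.40 and 7.38 CPM in 24m replicates 1 to 4. Every aged library was above every young library. Htr1a rose 3.39-fold, or 1.76 ± 0.28 (SE) on the log2 scale (adjusted p = 0.00057, edgeR). It was 1.80 after the length trend was taken out, and 1.93 without replicate 1 of 24m.

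Htr1b (ENSMUSG00000049511, chromosome 9, 81510344 to 81515902, minus strand) encodes the autoreceptor of serotonin axon terminals, which also sits on the terminals of other neurons. It had 1.49, 1.33, 1.44 and 1.36 CPM in the 6m libraries, the narrowest spread among the members at that age relative to its mean, and 1.55, 3.81, 3.67 and 4.52 CPM in 24m. Replicate 1 of 24m lay just above the highest young library and the other 3 aged libraries lay far above it. On the log2 scale Htr1b rose by 1.26 ± 0.29 (SE, adjusted p = 0.00376, edgeR), and by 1.53 without replicate 1 of 24m and 1.27 with the length trend removed (exons of 4745 bases). D430036J16Rik overlaps Htr1b on the opposite strand, and since the use of strand in counting is not given in the sources used here, reads of the pair could have been counted together.

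Htr5a (ENSMUSG00000039106, chromosome 5, 28047147 to 28063529, plus strand), a Gi/o-coupled receptor of neurons that is among the least studied of the family, had 0.808, 1.10, 0.962 and 0.772 CPM in 6m and 2.19, 3.53, 3.64 and 4.57 CPM in 24m. The lowest aged library was thus above the highest young one. Its rise was 3.81-fold (log2 1.93 ± 0.24, SE), and the adjusted p of 0.000161 (edgeR) was the smallest among the members. Its transcript is long (8.82 kb of exons), and the value with the length trend removed was 1.59. Without replicate 1 of 24m it was 2.12. An opposite-strand gene, Gm26608, overlaps it.

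Htr1d (ENSMUSG00000070687, chromosome 4, 136150835 to 136172370, plus strand) encodes a close relative of the Htr1b receptor that also acts on axon terminals. It was the only member that fell: CPM values were 2.00, 2.22, 2.19 and 2.50 in 6m and 1.20, 1.27, 1.71 and 1.78 in 24m. All aged libraries were below all young ones. The log2 fold change of Htr1d was -0.5816 (95% confidence interval -0.97 to -0.20, adjusted p = 0.0141, edgeR), barely past the threshold of -0.58, and the call was lost in several alternatives, with a log2 fold change of -0.47 without replicate 1 of 24m and of -0.35 (adjusted p = 0.124) when libraries were scaled by their totals alone. Htr1d has 4.13 kb of exons, and with the length trend removed its value was -0.50 (adjusted p = 0.0315), also short of the fold threshold.

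The Gq-coupled receptors rose together. Htr2a (ENSMUSG00000034997, chromosome 14, 74877344 to 74946934, plus strand) encodes the excitatory receptor of cortical neurons at which classic psychedelics act. It was scarce in the young brain, with 0.396, 0.778, 0.945 and 0.287 CPM, and reached 1.09, 3.18, 3.39 and 4.45 CPM in the aged brain. The aged libraries lay above the young ones, replicate 1 by a small margin. The 5.02-fold rise of Htr2a was 2.33 ± 0.47 on the log2 scale (SE, adjusted p = 0.00211, edgeR), and 2.63 without replicate 1 of 24m and 2.15 with the length trend removed (6.61 kb of exons). Its standard error was the largest among the members.

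Htr2c (ENSMUSG00000041380, chromosome X, 145745509 to 145980286, plus strand) encodes a receptor abundant in the choroid plexus and in neurons that restrain feeding, and its transcript is edited from A to I in the second intracellular loop. The CPM values were 3.14, 4.26, 3.80 and 2.25 in 6m and 8.36, 12.4, 12.7 and 19.2 in 24m. Even the lowest aged library was well above the highest young library. The log2 fold change of 1.97 ± 0.27 (SE) was a 3.91-fold rise (adjusted p = 0.000289, edgeR), and it was 2.15 without replicate 1 of 24m and 1.60 with the length trend removed. Htr2c has the longest union of exons among the members (9.34 kb), while its canonical transcript has 4763 bases. In the annotation, 8 small RNA genes lie within Htr2c on its strand, namely Mir448, Mir764, Mir1264, Mir1298, Mir1911, Mir1912, Mir3552 and Snora35, and 2 genes overlap it on the opposite strand, 1700094I16Rik and Gm61665. Editing could not be read from gene counts.

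Htr4 was the Gs-coupled receptor that rose, while Htr6 and Htr7 were not called. Htr4 (ENSMUSG00000026322, chromosome 18, 62456716 to 62629648, plus strand) encodes a receptor of hippocampal and striatal neurons that raises cyclic AMP. It was the least abundant member, with 9, 21, 5 and 8 counts in 6m and 52, 73, 82 and 121 counts in 24m. In CPM these were 0.137, 0.297, 0.0829 and 0.121, and 0.502, 0.911, 0.985 and 1.39. The ages did not overlap. Its 5.78-fold rise (log2 2.53 ± 0.42, SE, adjusted p = 0.000751, edgeR) was the largest among the members, and the log2 value was 2.17 with the length trend removed and 2.76 without replicate 1 of 24m. The young libraries give it few reads, and its 95% confidence interval ran from 1.59 to 3.47. Under a filter of at least 1 CPM in 4 libraries it was not tested.

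Htr6 (ENSMUSG00000028747, chromosome 4, 138786811 to 138802923, minus strand) encodes a receptor most abundant in the striatum. It had 5.44, 6.34, 4.98 and 5.40 CPM in 6m and 5.91, 5.38, 5.63 and 5.34 CPM in 24m, so the ages were interleaved. Its log2 fold change was 0.01 with a 95% confidence interval of -0.25 to 0.26 (adjusted p = 0.962, edgeR), an interval that leaves room for changes below the threshold in either direction. Htr6 has 3.06 kb of exons, and its log2 value was 0.26 with the length trend removed (adjusted p = 0.0663) and -0.0036 without replicate 1 of 24m. Htr7 (ENSMUSG00000024798, chromosome 19, 35935818 to 36035177, minus strand), a receptor of thalamus, hypothalamus and hippocampus, had 3.96, 5.09, 4.84 and 3.51 CPM in 6m and 4.03, 5.23, 5.50 and 7.07 CPM in 24m. Its aged libraries overlapped the young ones only through replicate 1. The log2 fold change of Htr7 was 0.33 with an interval of -0.10 to 0.75 (adjusted p = 0.158, edgeR), which reaches past the threshold. Without replicate 1 of 24m it was 0.47 at an adjusted p of 0.0258, still short of the fold threshold. Htr7 has 3.98 kb of exons, and removal of the length trend gave 0.43 (adjusted p = 0.0916).

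The ion channel subunit Htr3a (ENSMUSG00000032269, chromosome 9, 48810512 to 48822686, minus strand) marks interneurons that come from the caudal ganglionic eminence. It had 7.07, 8.84, 8.59 and 8.40 CPM in 6m and 9.43, 8.26, 8.35 and 7.67 CPM in 24m. Neither age lay above the other, and the log2 fold change was 0.04 (95% confidence interval -0.22 to 0.29, adjusted p = 0.804, edgeR). Htr3a has the shortest union of exons among the members (2.39 kb). Once the length trend was removed it had a log2 value of 0.42 at an adjusted p of 0.00749 (edgeR), below the fold threshold. The value without replicate 1 of 24m was -0.0030. An opposite-strand gene, Gm32335, overlaps Htr3a.

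**Figure D2:**
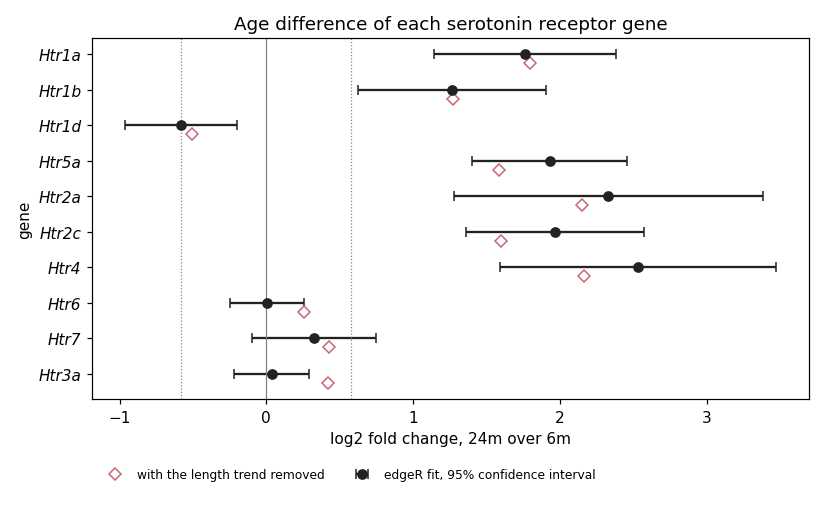
Log2 fold change of 24m over 6m (x axis) for each receptor gene (y axis), as black points with 95% confidence intervals from edgeR and as open diamonds after removal of the length trend; dotted lines mark the thresholds of -0.58 and 0.58. The 6 members called higher lie between 1.26 and 2.53, Htr1d lies on the lower threshold, and Htr6, Htr7 and Htr3a have intervals that include 0.

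Across all genes the age difference depended on the length of the transcript, so each member was set beside genes of like length. Htr3a, Htr6 and Htr7 have 2 to 4 kb of exons, a class in which 9.04% of 3518 tested genes were called higher and 27.1% lower, and the median log2 fold change was -0.30. Htr1a, Htr1b and Htr1d have 4 to 6 kb, with 23.1% of 3618 genes called higher, 15.98% called lower and a median of -0.012. Htr2a, Htr2c, Htr4 and Htr5a have 6 kb or more, with 37.5% of 7934 genes called higher, 8.94% called lower and a median of 0.31. Of the 10 members, only Htr1d lay below the median of its class. The classes and the removed length trend both use the union of exons. By the canonical transcript, Htr4 (1267 bases) would fall under 2 kb, Htr2c (4763 bases) in 4 to 6 kb and Htr1d (3723 bases) in 2 to 4 kb. Classes by that length were not made, nor was the trend removed by it.

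**Figure D3:**
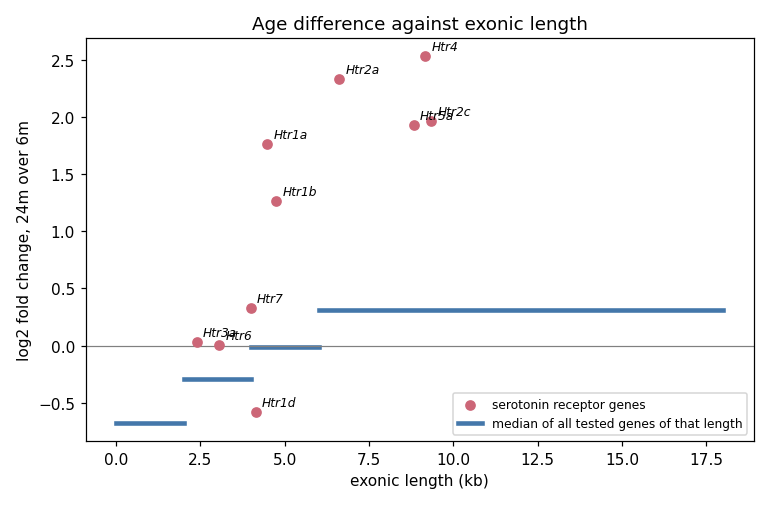
Log2 fold change of 24m over 6m (y axis) against exonic length in kb (union of exons, x axis) for the 10 receptor genes (red points). Blue bars are the median of all tested genes in each length class, the last bar standing for 6 kb and over. The medians rise from -0.67 under 2 kb to 0.31 at 6 kb and over, and 9 of the 10 receptor genes lie above the bar of their class.

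Levels were compared between members per length, as counts per kb of exon per 1000000 scaled counts. At 6m the order of the mean level was Htr3a (3.44 ± 0.33, SD, n = 4), Htr6 (1.81 ± 0.19), Htr7 (1.09 ± 0.19), Htr1d (0.539 ± 0.050), Htr2c (0.360 ± 0.093), Htr1a (0.349 ± 0.113), Htr1b (0.297 ± 0.016), Htr5a (0.103 ± 0.017), Htr2a (0.091 ± 0.047) and Htr4 (0.0174 ± 0.0103). Of the neighbours in that order, Htr2c and Htr1a, Htr1a and Htr1b, and Htr5a and Htr2a overlapped over the 4 libraries, and the others did not. At 24m the order was Htr3a (3.53 ± 0.31), Htr6 (1.82 ± 0.09), Htr2c (1.41 ± 0.48), Htr7 (1.37 ± 0.31), Htr1a (1.19 ± 0.35), Htr1b (0.714 ± 0.269), Htr2a (0.458 ± 0.212), Htr5a (0.395 ± 0.111), Htr1d (0.360 ± 0.071) and Htr4 (0.103 ± 0.040). By this length Htr3a was first and Htr4 last at both ages, Htr2c moved from rank 5 to rank 3, and Htr1d moved from rank 4 to rank 9. All neighbours from Htr6 down to Htr1d overlapped at 24m. The level of Htr4 depends on which length is used, since its annotated exons sum to 9169 bases and its canonical transcript has 1267. By the canonical length it was 0.126 at 6m and 0.747 at 24m, and Htr2c was 0.706 and 2.76. The ranks change with it: Htr4 then stood above Htr5a (0.103) and Htr2a (0.0920) at 6m and above Htr1b (0.714) at 24m, Htr2c stood above Htr1d (0.598) at 6m and above Htr6 (2.59) at 24m, and Htr3a was first at both ages. By that length each of these pairs overlapped over the 4 libraries of its age, as did Htr3a and Htr2c at 24m.

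As shares of the summed level per length of the 10 members, the Gq-coupled receptors held 5.51 ± 1.30% at 6m (3.71% to 6.59%) and 16.1 ± 3.99% at 24m (10.98% to 20.7%, SD, n = 4 each), without overlap between ages. The Gi/o-coupled receptors went from 15.9 ± 0.21% to 23.0 ± 4.19%, also without overlap, although Htr1d, one of them, went from 6.69 ± 0.84% to 3.16 ± 0.35%. The Gs-coupled receptors held 36.0 ± 1.95% at 6m (34.1% to 38.1%) and 29.1 ± 1.33% at 24m (27.9% to 31.0%), lower and again without overlap. Htr3a held 42.5 ± 2.45% and 31.7 ± 6.82%. The share of Htr3a in replicate 1 of 24m, 40.9%, lay within the range of the young libraries. Shares are tied to each other and the levels of Htr3a and of Htr6 overlapped between ages, so these figures describe the mixture and were not tested. They also depend on the length used. Per canonical length, a comparison added after the data were seen, the Gq-coupled share was 8.33 ± 1.78% at 6m and 22.1 ± 4.67% at 24m and the Gs-coupled share 40.5 ± 2.22% and 33.6 ± 1.49%, both still without overlap. The Gi/o-coupled share then overlapped between ages (13.8% to 14.6% and 14.3% to 21.1%), and that of Htr3a did not (34.9% to 40.1% and 19.2% to 33.9%).

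**Figure D4:**
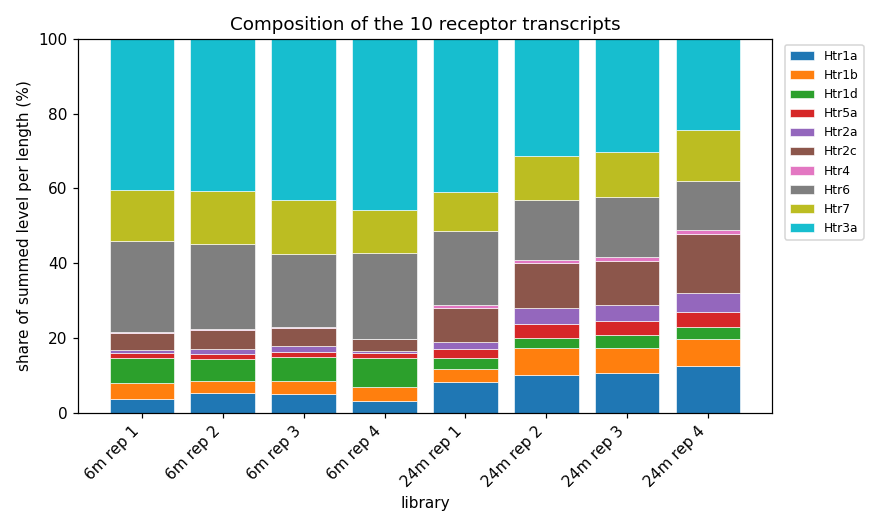
Share of each receptor gene in the summed level per length of the 10 members (y axis, percent) for each library (x axis, 4 of 6m and 4 of 24m). The segment of Htr2c widens from 4.41% on average at 6m to 12.2% at 24m, and that of Htr3a narrows from 42.5% to 31.7%.

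Of the 4 remaining genes of the family, 2 were tested and neither was called. Htr1f, a Gi/o-coupled receptor, moved by -0.08 ± 0.30 on the log2 scale (SE, adjusted p = 0.835, edgeR) and Htr5b, a relative of Htr5a, had -0.0019 ± 0.14 (adjusted p = 0.991). With the length trend removed Htr1f had -0.15 (adjusted p = 0.675, edgeR) and Htr5b 0.46 (adjusted p = 0.0391), under the fold threshold. Htr2b and Htr3b were under the filter on low counts, with at most 0.113 CPM and 0.048 CPM in any library.

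Transcripts for making and handling serotonin were mixed. Of 15 genes tested, 6 were called lower and 2 higher, or 3 and 3 when libraries were scaled by their totals alone, and the median was -0.32 (log2). Over all tested genes 18.3% were called lower and 25.3% higher. Library totals alone gave 7195 calls in either direction, beside 7295 in the main test. The serotonin transporter Slc6a4 stood at 7.61, 9.16, 3.72 and 7.54 CPM in 6m and at 0.743, 0.986, 1.60 and 4.78 CPM in 24m, so replicate 4 of 24m lay within the young range. It fell by 1.79 on the log2 scale (adjusted p = 0.0161, edgeR). Tph2, the neuronal enzyme that limits serotonin synthesis, had 4.77, 6.31, 2.60 and 4.48 CPM in 6m and 0.714, 0.998, 2.02 and 5.53 CPM in 24m, and was not called (log2 fold change -0.98, adjusted p = 0.158). Fev, the transcription factor of serotonin neurons, fell by 1.12 (adjusted p = 0.00817), which was -0.53 with the length trend removed (adjusted p = 0.17). Genes of tetrahydrobiopterin supply, the cofactor of Tph2, made up the rest of the lower calls: Gch1 had a log2 fold change of -0.81, Spr of -0.70, Pts of -0.62 and Qdpr of -0.60. With libraries scaled by their totals alone, Gch1 was still called (-0.59), while Spr (-0.49), Pts (-0.41) and Qdpr (-0.38) fell short of the fold threshold. Called higher were the vesicular monoamine transporter Slc18a2 (1.04 ± 0.30, SE) and the low-affinity transporter Slc22a3 (0.86 ± 0.33). The breakdown enzyme Maoa was not called, and Maob had an adjusted p of 0.0023 at a log2 fold change of 0.42, under the fold threshold.

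Genes that act on the receptors or edit their transcripts were mixed. Of 14 tested, 7 were called higher and 2 lower (median log2 fold change 0.59), beside 25.3% and 18.3% of all tested genes. The exons of 10 of the 14 sum to 6 kb or more, a class with 37.5% of genes called higher and 8.94% lower. The editing enzymes Adar, from 79.4 ± 4.76 to 185 ± 18.5 CPM, and Adarb1, from 24.3 ± 3.73 to 88.2 ± 25.3 CPM (SD, n = 4 each), had log2 differences of 1.22 and 1.86 (adjusted p = 2.42e-05 and 0.000114, edgeR). The largest rise was that of Arrb1, an arrestin that uncouples receptors from G proteins (1.88), and the chaperone Ric3, which acts on channels of the Htr3a type, rose by 1.00. S100a10, which binds Htr1b and Htr4 receptors and brings them to the membrane, had the lowest value of the list, going from 60.2 ± 5.31 to 30.2 ± 7.89 CPM (-0.99 on the log2 scale, adjusted p = 0.00075).

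In the main test, the genes downstream of each receptor class were called higher or not called. Of the Gi/o effectors, 7 of 9 were called higher and 0 lower (median 1.18), from Gnai2 (0.27, not called) to Gnai3 (1.62), and the potassium channel subunits Kcnj3 and Kcnj6 rose by 1.62 and 1.19. Of the Gq effectors, 6 of 10 were called higher and 0 lower (median 0.94), from Prkcb (-0.13, not called) to the kinase Prkca (2.09), with the G protein Gnaq at 2.03 ± 0.25 (SE). Among 12 Gs effectors, 6 were called higher and 0 lower (median 0.58), from Gnas (-0.31, not called) to the adenylyl cyclase Adcy1, with 8.87 ± 1.17 CPM at 6 months and 99.7 ± 45.8 CPM at 24 months (log2 difference 3.49, adjusted p = 5.86e-05). Over all tested genes 25.3% were called higher and 18.3% lower, and of the transcripts with 6 kb of exons or more, 37.5% and 8.94%. That length was reached by 6 of the 9 Gi/o effectors, 8 of the 10 Gq effectors and 11 of the 12 Gs effectors. With the length trend removed, 6, 5 and 6 genes of these lists, in that order, were called higher and 0, 1 and 1 lower. That setting called 21.3% of all tested genes higher and 17.2% lower. The lower calls were Prkcb (-0.59) and Gnas (-0.75). In the main test Gnas had an adjusted p of 0.00791 (edgeR), short of the fold threshold, with every aged library below every young one.

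**Figure D5:**
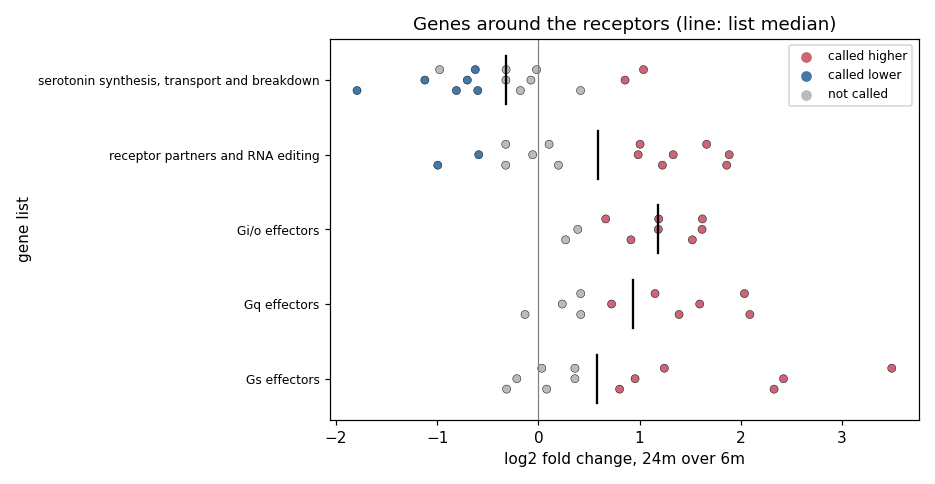
Log2 fold change of 24m over 6m (x axis) of each tested gene in 5 lists of genes around the receptors (y axis), coloured by call, with the list median as a black line. The medians run from -0.32 for serotonin synthesis, transport and breakdown to 1.18 for the Gi/o effectors.

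The genes whose pattern over the 8 libraries was most like that of a member were looked up for the most abundant and the most changed member among 13530 tested genes of at least 1 CPM. For Htr3a these were Ei24, Vdac1 and Kif17, with Pearson r of log2 CPM of 0.93, 0.92 and 0.90. For Htr4 these were Apmap, Casp2 and Srd5a1, each with an r of 0.99 when rounded, and 938 genes had an r over 0.95 with Htr4. The libraries are the same for all genes, and no test was made.

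Markers of the cells and regions in which the receptors are found are given next, to be read against the 25.3% of all tested genes called higher and the 18.3% called lower, to which several of these counts are close. Their part in the receptor values was not tested. For cortical excitatory neurons, 5 of 9 markers were called higher and 0 lower, from Rorb (0.08) to Rasgrf2 (2.55), and the summed level was 1353 to 1661 CPM in 6m and 1675 to 2026 CPM in 24m. Most of that sum was Slc17a7, the vesicular glutamate transporter (1380 ± 129 CPM and 1668 ± 200.4 CPM, SD, n = 4 each), which overlapped between ages and was not called (log2 0.27, adjusted p = 0.0593, edgeR). For hippocampal neurons 4 of 9 were higher and 2 lower, from Spink8 (-0.90) to Dkk3 (1.46), at 216 to 250.5 CPM and 309 to 401 CPM. For interneurons of the caudal ganglionic eminence 4 of 10 were higher and 2 lower, from Sncg (-1.49) to Cnr1 (3.00), at 1374 to 1530.5 CPM and 797 to 963 CPM. The neuropeptide gene Cck, called lower, made up much of that sum (915 ± 32.3 CPM and 387 ± 58.7 CPM, SD, n = 4 each). For striatal projection neurons 3 of 9 were higher and 1 lower, from Penk (-0.64) to Pde10a (1.98), at 1247 to 1518 CPM and 986 to 1245 CPM. The choroid plexus, where Htr2c is abundant, had 4 of 12 higher and 1 lower, from Prlr (-1.89) to Kl (1.53), at 1796 to 3228 CPM and 841 to 2280.1 CPM. Its most abundant marker Ttr was not called (log2 fold change -0.79, adjusted p = 0.0598, edgeR), but without replicate 1 of 24m it was called lower (-1.07, adjusted p = 0.00578), as was Folr1 (-1.24, adjusted p = 0.00125). Markers of raphe serotonin neurons gave 1 of 8 higher and 2 lower, from Slc6a4 (-1.79) to Slc18a2 (1.04), at 13.7 to 25.8 CPM and 7.94 to 21.3 CPM, and 4 of these 8 are also in the list of serotonin handling above.

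For thalamus and hypothalamus 1 of 9 tested markers was higher and 2 were lower, from Hcrt (-1.27) to Slc17a6 (1.30), at 145 to 168 CPM and 144 to 160.2 CPM. For cerebellar cells 5 of 8 were higher and 0 lower, from Pcp2 (-0.53) to Cbln3 (1.69), at 401 to 688 CPM and 519 to 713 CPM. Pan-neuronal markers gave 1 of 9 higher and 2 lower, from Elavl4 (-0.72) to Syt1 (1.55), at 5197 to 5453 CPM and 4827 to 5173 CPM. Astrocyte markers gave 6 of 9 higher and 1 lower, from S100b (-1.29) to Aqp4 (1.92), at 2903 to 3837 CPM and 2867 to 3858 CPM. Oligodendrocyte precursor markers gave 2 of 4 higher and 0 lower, from Olig1 (0.23) to Pdgfra (2.05), at 127 to 156 CPM and 157 to 195 CPM. Microglial markers gave 2 of 10 higher and 0 lower, from Aif1 (-0.34) to Cx3cr1 (1.72), at 692 to 769.9 CPM and 643 to 981 CPM, and endothelial markers 1 of 6 higher and 2 lower, from Ly6c1 (-1.26) to Flt1 (1.24), at 74.3 to 109 CPM and 43.0 to 66.8 CPM. Of all these markers, Sim1 was the only one with a library at 0, and it was not tested.

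Several of these counts moved with the processing. The calls over all genes, in either direction, moved too. They were 7295 in the main test, 7195 with library totals alone and 8265 without replicate 1 of 24m, where the filter was applied anew. With the length trend removed, 21.3% of all tested genes were called higher and 17.2% lower. Without replicate 1 of 24m the list counts were 4 higher and 3 lower for the choroid plexus, 2 and 3 for pan-neuronal markers, 5 and 2 for hippocampal neurons, 4 and 3 for caudal ganglionic eminence interneurons and 4 and 1 for cerebellar cells. With the length trend removed, hippocampal neurons had 3 higher and 0 lower (Spink8 at -0.22, adjusted p = 0.234, edgeR, and Grp at -0.39), striatal neurons 3 and 0, raphe neurons and thalamus with hypothalamus 1 and 1 each, the choroid plexus 4 and 2, cortical neurons and cerebellar cells 4 and 0 each, and oligodendrocyte precursors 3 and 0. With libraries scaled by their totals alone, pan-neuronal markers had 2 higher and 0 lower, striatal neurons, microglia and oligodendrocyte precursors 3 and 0 each, hippocampal neurons 4 and 1, the choroid plexus 5 and 1, cerebellar cells 6 and 0, raphe neurons 2 and 2, and thalamus with hypothalamus 1 and 1. The other counts of these lists were as in the main test.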

How the data were processed

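Libraries of polyadenylated RNA from 8 mice were trimmed by the authors with Trim Galore 0.4.11, aligned to GRCm39 with HISAT2 2.1.0 (submitters' processing notes) and counted per Ensembl gene with featureCounts. The deposited values are raw counts. Strand use in counting and the treatment of multimapping reads are not given in the sources used here.

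Here identifiers were matched to GENCODE M39 (22281 of 22430, with 0.312% of counts unmatched), which is a later annotation than that of the authors. Testing kept genes above 5 counts in 4 or more of the 8 libraries and was done with edgeR 4.0.16 (R 4.3.3), TMM factors, age as the only term and Benjamini-Hochberg adjustment over all 16730 genes. The calls used the thresholds of the study (adjusted p of at most 0.05, log2 fold change of at least 0.58 or at most -0.58). SE is the log2 fold change over the square root of F. CPM is counts per 1000000 of the TMM-scaled library. Replicates were separate animals, and chi-square per degree of freedom was 8.18 to 417 over the 12 pairs within an age, so none was a duplicate. The alternatives were DESeq2 1.42.0, limma-voom (limma 3.58.1), other scalings and filters, removal of length or GC trends (loess, span 0.3), each library left out, and a replicate block. Log2 CPM for likeness used a prior count of 2. On simulated data for this comparison (16730 genes), 86.5% of 200 genes with a true log2 change of 1 were called. With a simulated length trend of 1.5 log2 units per unit of log10 length and no gene changed, 3635 genes were called without a length offset, as in the main test, and 0 with one. The mean slope of the libraries differed by 1.02 between the ages. Members, lists and the rule for named genes (all members, the other family genes, the defining and extreme genes of each list, the 3 genes most like a member) were chosen with earlier results of these data known. The result of 1 marker list is not reported here.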

Additional observations from a re-analysis of the deposited data

Results flagged for a closer look

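Within each age, the CPM of the 10 members and the other 4 receptor genes were examined for a library far from the other 3, in 28 groups of 4 libraries, where chance gives such a value in about 1 of 20 groups. One was found: Htr1f had 0.27 CPM in replicate 1 of 24m and 0.684 to 0.768 CPM in the other aged libraries, so that the gap took 0.832 of the range. The same library had the lowest aged value of Htr1a, Htr1b, Htr1d, Htr2a, Htr2c, Htr4, Htr5a, Htr5b and Htr7. It had the highest aged value of Htr3a and Htr6.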

How the results depend on the processing

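Over all genes, the alternatives called 6286 to 8265 in either direction, beside 7295 in the main test. The 6 members called higher stayed called in every alternative in which they were tested. Their log2 fold changes ranged over these from 1.43 to 1.98 for Htr1a, 0.93 to 1.53 for Htr1b, 2.03 to 2.63 for Htr2a, 1.60 to 2.19 for Htr2c, 2.17 to 3.03 for Htr4 and 1.59 to 2.16 for Htr5a. The count of members called lower went from 1 to 0 with library totals alone (Htr1d log2 fold change -0.35), without a filter on low counts (-0.57) and with the length trend removed (-0.50), and it was 0 to 1 with a library left out (Htr1d -0.68 to -0.47), being 0 without replicate 4 of 6m or replicates 1 or 2 of 24m. Members that were not called changed sign: DESeq2 on quantile-normalized counts gave -0.25 for Htr3a (adjusted p = 0.121), -0.33 for Htr6 (adjusted p = 0.0257, short of the fold threshold) and -0.032 for Htr7 (adjusted p = 0.866), the 1 CPM filter gave -0.0019 for Htr6, and leaving out a library gave -0.031 to 0.079 for Htr3a and -0.041 to 0.078 for Htr6. Per canonical length, levels were 0.598 for Htr1d at 6m, 0.706 and 2.76 for Htr2c, 0.126 and 0.747 for Htr4, and 2.58 and 2.59 for Htr6 at 6m and 24m, because that length is shorter than the union of exons. Shares by that length, added after the data were seen, were 14.2% and 18.6% for Gi/o-coupled, 8.33% and 22.1% for Gq-coupled and 40.5% and 33.6% for Gs-coupled receptors at 6m and 24m, and 36.9% for Htr3a at 6m. With library totals alone, Htr1b was 0.275 at 6m and Htr6 1.96 at 24m, and the median gene shifted by 0.21 (log2). The replicate numbers did not pair the animals (same-number correlations -0.348 to 0.271). With a replicate block, 6 members were called higher and 1 lower, as without it. Otherwise the cause of these shifts was not tested. Htr4 had 5 to 21 counts in the 6m libraries, which limits the precision of its fold change.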
